A study of Mus musculus with 4 samples.

Results

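The kallikrein 1-related peptidases described here are 9 genes, Klk1, Klk1b5, Klk1b8, Klk1b9, Klk1b21, Klk1b22, Klk1b24, Klk1b26 and Klk1b27. Each had 1 transcript on the array, so 9 of 25631 transcripts were members. They were taken by gene symbol from a list selected on the log2 levels of these same 4 arrays, by label and between KO arrays, and all 9 were measured. The 5 other protein-coding genes of the family, Klk1b1, Klk1b3, Klk1b4, Klk1b11 and Klk1b16, are set beside them. Total RNA of juvenile male testes, taken whole at postnatal day 9, was hybridised in 1 colour (Cy3) to NimbleGen expression arrays. The 3 Dmrt1 KO arrays carried the labels Dmrt1 KO, DHH-cre and Cre-positive. The 1 control array carried the labels Control, DHH-cre and Cre-negative, and the labels give neither the strain nor the Dmrt1 alleles of either group. In the testis Dhh is expressed in Sertoli cells, which nurse the germ cells, so a Dhh-driven Cre leaves Dmrt1 of the germ cells in place, and a whole testis holds all cell types. The labels do not say whether the KO arrays came from separate animals, so any p measures only the spread between these arrays, which may be technical.

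Kallikreins are secreted serine proteases, made as inactive precursors and cut to become active. Klk1, tissue kallikrein, releases kinin peptides from kininogens. In the mouse, tandem duplication next to Klk1 produced the Klk1b genes, many of which are made in the submandibular gland under androgen control. Several of them process growth factors or bind to them, and Klk1b21, Klk1b24 and Klk1b27 are known from the Leydig cells of the adult mouse testis, which make androgen. The whole family lies in 1 cluster on chromosome 7, where RefSeq (GRCm38.p6) lists 14 protein-coding Klk1 and Klk1b genes and 10 Klk1b pseudogenes.

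The copies are close in sequence, which bears on every value below, since probes for one may pick up RNA of another. The region around the start site is shown for 4 members. Klk1b22, Klk1b9 and Klk1b24 had the widest spreads of the members among the KO arrays. Klk1b5, whose region was 83.5% identical to that of Klk1b22, did not share their pattern. The sequences are RefSeq's for build GRCm38.p6, plus strand, 250 bases before to 50 after the annotated start, at chr7:44112423-44112722 for Klk1b22, chr7:43975811-43976110 for Klk1b9, chr7:44187986-44188285 for Klk1b24 and chr7:44216224-44216523 for Klk1b5. Capitals mark the letters TTTAAA, which resemble the core promoter element of many genes. In Klk1b24 they also mark AGAACA, which is the other strand of a half-site bound by the androgen receptor.
Klk1b22: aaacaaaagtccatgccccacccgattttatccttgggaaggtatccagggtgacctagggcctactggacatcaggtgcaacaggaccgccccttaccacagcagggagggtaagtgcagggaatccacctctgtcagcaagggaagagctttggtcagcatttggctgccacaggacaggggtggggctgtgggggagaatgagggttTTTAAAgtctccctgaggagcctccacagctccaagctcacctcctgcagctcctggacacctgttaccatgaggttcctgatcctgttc
Klk1b9: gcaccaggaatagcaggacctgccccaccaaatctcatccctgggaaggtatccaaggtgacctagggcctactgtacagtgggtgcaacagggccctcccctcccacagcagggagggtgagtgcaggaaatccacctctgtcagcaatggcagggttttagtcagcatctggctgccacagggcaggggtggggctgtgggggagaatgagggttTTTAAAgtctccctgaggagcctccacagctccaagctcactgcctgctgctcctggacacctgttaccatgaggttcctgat
Klk1b24: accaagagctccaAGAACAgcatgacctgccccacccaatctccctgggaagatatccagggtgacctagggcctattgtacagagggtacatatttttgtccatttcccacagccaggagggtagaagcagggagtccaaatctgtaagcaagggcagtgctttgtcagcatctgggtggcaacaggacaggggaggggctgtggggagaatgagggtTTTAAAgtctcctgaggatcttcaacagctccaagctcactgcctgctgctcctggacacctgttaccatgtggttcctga
Klk1b5: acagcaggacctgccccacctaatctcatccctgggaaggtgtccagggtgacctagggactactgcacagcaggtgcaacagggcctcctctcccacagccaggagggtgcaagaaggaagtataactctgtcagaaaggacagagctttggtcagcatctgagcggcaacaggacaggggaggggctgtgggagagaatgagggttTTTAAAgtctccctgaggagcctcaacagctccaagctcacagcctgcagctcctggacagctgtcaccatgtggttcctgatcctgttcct
Each of the 4 holds TTTAAA once. This motif stood in 13 of the 14 family regions and in 13.2% of 32851 mouse start-site regions of the same length. It was chosen as a motif after these sequences had been read. In 12 of the 13 it began between -48 and -13 relative to the start, and in Klk1b21 it began at 4. The standard TATA box TATAAA was in none of the 14, against 13.6% of all regions. The androgen receptor half-site TGTTCT, on either strand, was in 2 of the 14, Klk1b24 and Klk1b3, against 19% of all regions. ACANTGT, the core of the palindromic motif bound by DM domain factors such as DMRT1, was in none of the 14, against 7.54% of all regions. All motifs were searched on both strands, and ACANTGT and TTTAAA read the same on each. No motif contains another, although their ends can overlap. A match or its absence in this window says nothing on binding.

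Over the 36 pairs of members, identity of these regions in global alignment ran from 44.6% to 84.4%, with a median of 74.8%. Klk1b9 was the closest to Klk1b22 at 84.4%, followed by Klk1b11 at 83.6%, Klk1b5 at 83.5% and Klk1b8 at 82%. Klk1b24 stood at 75.3%, Klk1b21 at 59.1% and Klk1 at 49.1%. Gaps at the ends counted against identity, so regions whose annotated starts are offset score lower. The motif TTTAAA began at -40 in Klk1b22 and at 4 in Klk1b21, and their alignment held 207 identical bases over a length of 350. The value for Klk1b21 thus mixes the offset of the starts with differences in sequence. Transcript and probe sequences were not used here, so these values describe the start-site regions and not the probes.

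Dmrt1 itself had log2 intensities of 13.23, 13.38 and 13.66 in the KO arrays and 14.16 in the control array. Its difference of -0.73 ± 0.27 (SE of limma's moderated fit, 3 KO arrays and 1 control) did not pass (limma, adjusted p = 0.586), and probes outside the deleted part would not check the labels. The testis identity of the samples showed in the Sertoli marker Amh, at 12.52, 12.60 and 12.54 in the KO arrays and 12.60 in the control array, and in the germ cell helicase Ddx4, at 14.67, 14.68 and 14.58 in the KO arrays and 14.39 in the control array. No transcript could be called below background, because the deposited table has no background column.

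None of the 9 kallikrein genes passed the test of Dmrt1 KO against control. The fit over all transcripts called 0 of the 9 at an adjusted p under 0.05, against 0.655% of all transcripts, and 0 of the 9 had an unadjusted p under 0.05, against 6.42%. The lowest adjusted p was 0.943, for Klk1b8. The differences, KO mean minus control, ran from -0.31 for Klk1 to 1.36 for Klk1b22, with a median of 0.37, against 0.0043 over all transcripts. None of the 9 was at least 2-fold apart from the control in every KO array, as 1.15% of all transcripts were. For all 9 the distance between the highest and the lowest KO array was wider than the difference by label, as it was for 75.4% of all transcripts. With 1 control among 4 arrays, an exact one-sided permutation test of a single gene cannot give a p below 0.25. All these values come from the contrast that was used in choosing the genes and are given as a description.

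**Figure D1:**
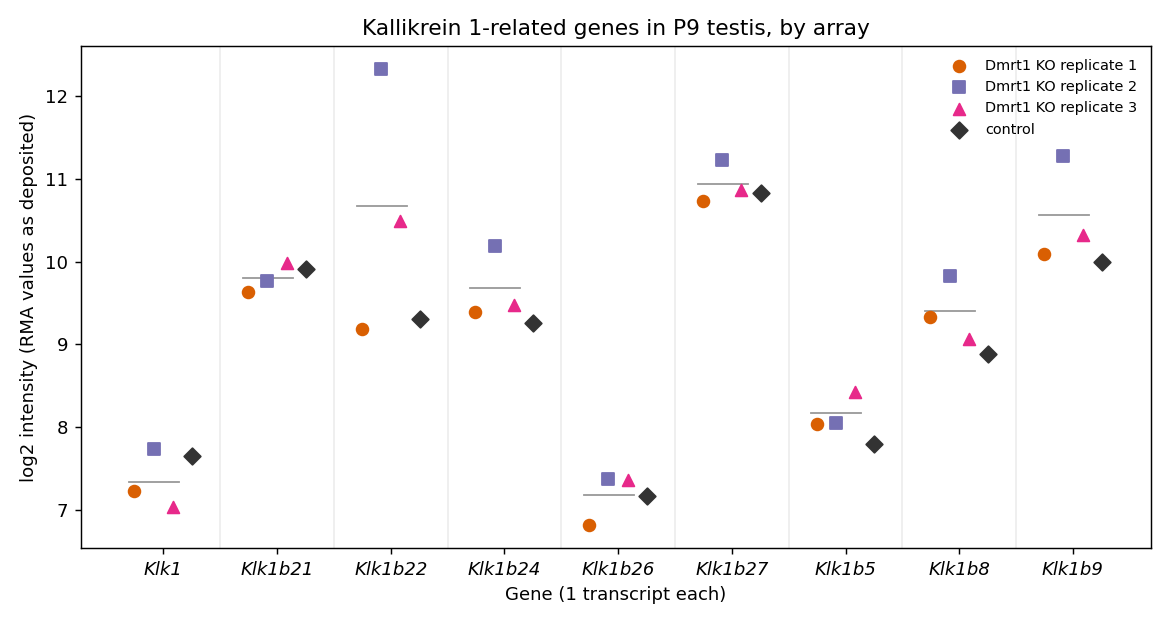
Log2 intensity (vertical axis) of the 9 kallikrein genes (horizontal axis) in each of the 4 arrays, with the 3 Dmrt1 KO replicates left of the control within each gene. Grey lines mark the mean of the KO arrays. Klk1b22 ran from 9.18 to 12.33 among the KO arrays, and its control value of 9.31 lay near the lowest of them.

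Klk1b22, known as epidermal growth factor binding protein type A, had by far the widest spread of the members. Its log2 intensity was 9.18, 12.33 and 10.49 in KO replicates 1, 2 and 3 and 9.31 in the control. On the linear scale the intensities were 581, 5159 and 1437 in the KO arrays and 635 in the control. Replicate 2 was thus 8.13-fold and replicate 3 2.26-fold over the control, while replicate 1 was at 0.916 of it. Among the KO arrays, replicate 2 was 8.88-fold over replicate 1 and 3.59-fold over replicate 3. The KO range of 3.15 on the log2 scale was rank 6 in width of 25631 transcripts. The KO mean was 10.67 ± 1.58 (SD, n = 3), and the difference from the control was 1.36 ± 0.86 (SE; limma, adjusted p = 0.948). The control lay inside the KO range. Without replicate 2 the difference was 0.53 and the KO range 1.31, and without replicate 1 the difference was 2.10 (limma, adjusted p = 0.172).

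Klk1b9, epidermal growth factor binding protein type C, had the same order of KO arrays over a narrower range, with the control below all 3. Its log2 intensities were 10.10, 11.27 and 10.32 in KO replicates 1, 2 and 3 and 9.998 in the control, so that replicate 2 stood apart and the other arrays lay close together. Replicate 2 was 2.42-fold over the control. The KO range of 1.17 ranked 612 among all transcripts, and the difference by label was 0.57 ± 0.41 (SE; limma, adjusted p = 0.974). Without replicate 2 it was 0.21. Klk1b22 and Klk1b9 were the 2 members whose KO arrays spanned at least 2-fold, which 4.63% of all transcripts did.

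Klk1b26, which carries the names epidermal growth factor binding protein type B and prorenin-converting enzyme, is the remaining member named as such a binding protein. Klk1b26 and Klk1b27 were the other members with the order of all 4 arrays of Klk1b22. Klk1b26 lacked the step between replicates 2 and 3. It had log2 intensities of 6.81, 7.37 and 7.36 in the KO arrays and 7.17 in the control. Replicates 2 and 3 were 1.01-fold apart, and replicate 1 was the array that stood apart. The difference by label was 0.0083 ± 0.30 (SE), and it ran from -0.088 without replicate 2 to 0.19 without replicate 1.

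Of the Leydig cell kallikreins, Klk1b21 varied least and Klk1b24 most. Klk1b21 had log2 intensities of 9.64, 9.77 and 9.99 in the KO arrays and 9.92 in the control, the narrowest KO range of the members at 0.35. Klk1b27 had 10.73, 11.23 and 10.87 in the KO arrays and 10.83 in the control. Klk1b24 had 9.39, 10.20 and 9.47 in the KO arrays and 9.26 in the control. In Klk1b24 and Klk1b27 replicate 2 was again the highest array, 1.92-fold and 1.33-fold over the control, and in Klk1b21 it was not. Their differences by label were -0.12 ± 0.27 for Klk1b21, 0.12 ± 0.28 for Klk1b27 and 0.43 ± 0.34 for Klk1b24 (SE), all with limma adjusted p-values of at least 0.988. Without replicate 2, Klk1b27 changed sign, to -0.028, and Klk1b24 stood at 0.17. Without replicate 1, Klk1b27 stood at 0.22 and Klk1b21 at -0.035, and without replicate 3 Klk1b21 stood at -0.21.

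Klk1b8 and Klk1b5 are submandibular gland kallikreins whose substrates are less well known. Klk1b8 had log2 intensities of 9.33, 9.83 and 9.06 in the KO arrays and 8.88 in the control, with replicate 2 the highest at 1.93-fold over the control. Klk1b5 had 8.04, 8.05 and 8.42 in the KO arrays and 7.80 in the control, and here replicate 3 was the highest at 1.54-fold over the control. In both genes every KO array lay above the control. The differences by label were 0.52 ± 0.32 for Klk1b8 and 0.37 ± 0.27 for Klk1b5 (SE). Without replicate 2 that of Klk1b8 was 0.31, and without replicate 3 that of Klk1b5 was 0.25.

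Klk1, tissue kallikrein itself, had log2 intensities of 7.23, 7.74 and 7.03 in the KO arrays and 7.65 in the control. The control lay between replicate 2 and the other 2 KO arrays. The difference by label was -0.31 ± 0.31 (SE), the most negative of the members (limma, adjusted p = 0.996). It was -0.52 without replicate 2 and -0.16 without replicate 3, where Klk1b21 at -0.21 was more negative. Klk1 and Klk1b26 were the 2 members among the dimmest 25% of all transcripts by mean level.

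The control array lay below every KO array in 4 of the 9 genes, Klk1b5, Klk1b8, Klk1b9 and Klk1b24, and above every KO array in 0. Over all transcripts it lay below every KO array in 25.6%, above in 24.1% and outside their range in 49.8%. KO replicate 2 was the highest of the KO arrays in 7 of the 9, against 34.8% of all transcripts, and in those 7 it was also the highest of all 4 arrays, against 27.9%. Replicate 3 was the highest KO array in the other 2, Klk1b5 and Klk1b21, against 35.2% of all transcripts. The median of replicate 2 minus the mean of replicates 1 and 3 was 0.61 over the members and 0.012 over all transcripts. Of the 5 family genes outside the list, replicate 2 was the highest KO array in 3, and the same median was 0.28. The list was selected on differences between KO arrays in these same values, so the values of the members are given as a description. The members are close copies and share the arrays, so these counts are not counts of independent genes.

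**Figure D2:**
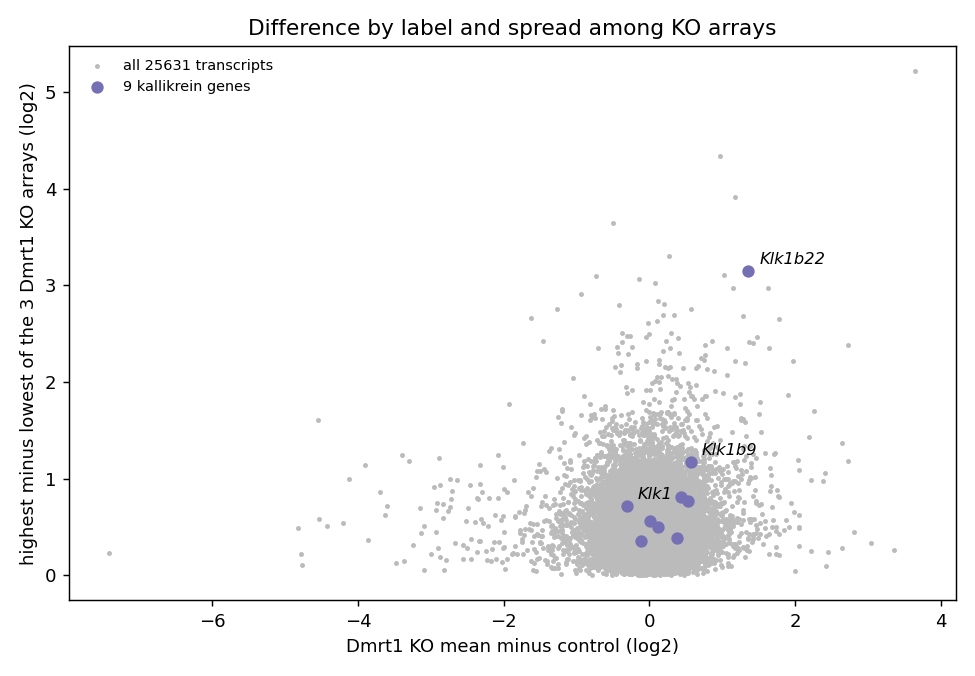
Each point is a transcript, with the mean of the 3 Dmrt1 KO arrays minus the control on the horizontal axis and the distance between the highest and lowest KO array on the vertical axis, both in log2 units. The 9 kallikrein genes are in purple. Klk1b22 sits at 1.36 and 3.15 and Klk1b9 at 0.57 and 1.17, and the other 7 had KO ranges of 0.81 or less.

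In Klk1b22, Klk1b9 and Klk1b24 the excess over the control had nearly the same proportion between KO replicates 3 and 2. Klk1b22 exceeded the control by 4525 intensity units in KO replicate 2 and by 802 in replicate 3, so that the excess in replicate 3 was 0.177 of that in replicate 2. The same share was 0.179 for Klk1b9, with excesses of 1452 and 259.8, and 0.177 for Klk1b24, with excesses of 561 and 99.5. It was 0.143 for Klk1b8 and 0.0933 for Klk1b27. Each share rests on 1 control array. In replicate 3 the excess on the log2 scale was 0.33 for Klk1b9 and 0.22 for Klk1b24. The scaled interquartile range of replicate 3 minus control over all transcripts was 0.32. How alike the shares are thus cannot be resolved with these arrays. Of the 6 family genes at least 1.5-fold over the control in replicate 2, 3 lay between 0.17 and 0.18. The others were Klk1b8, Klk1b11 at 0.0426, whose start-site region is 83.6% identical to that of Klk1b22, and Klk1b4 at -0.519. Klk1b5, whose start-site region is 83.5% identical to that of Klk1b22, had a share of 2.86, since its excess was larger in replicate 3. Over the 2121 transcripts at least 1.5-fold over the control in replicate 2, the median share was 0.376, with quartiles of 0.101 and 0.734. Of these 2121, 25 (1.18%) lay between 0.17 and 0.18. This measure was chosen after the values had been seen, and the window from 0.17 to 0.18 was set around the 3 genes it counts. Replicate 1 did not follow the proportion, at -53.6 for Klk1b22 against 73.6 for Klk1b9 and 57.4 for Klk1b24. Signal of 1 copy on the probes of another and separate changes of each gene cannot be told apart in these data, and values of single members are uncertain to that extent.

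**Figure D3:**
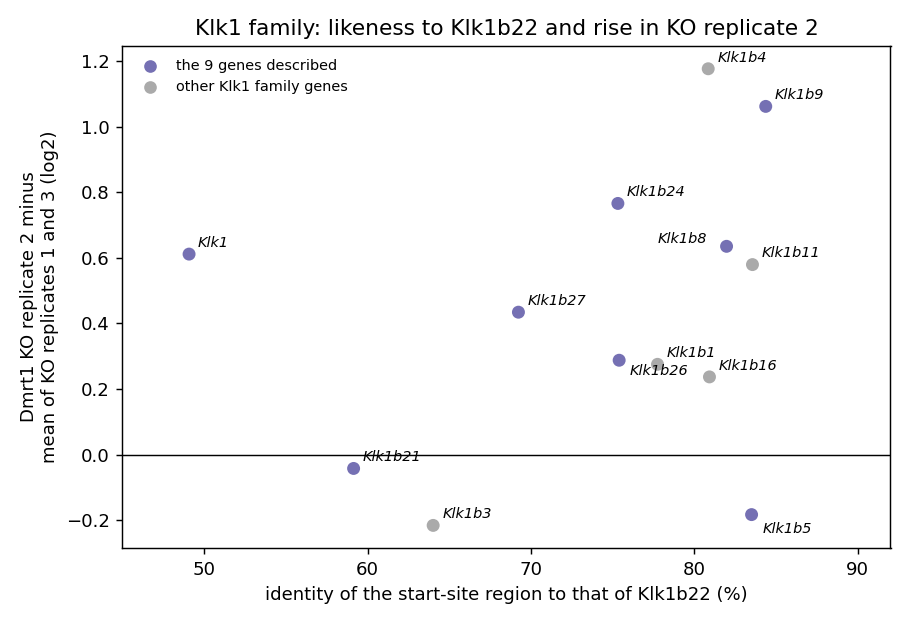
Each point is a Klk1 family gene other than Klk1b22, with the identity of its start-site region to that of Klk1b22 (percent) on the horizontal axis and Dmrt1 KO replicate 2 minus the mean of KO replicates 1 and 3 (log2) on the vertical axis. Klk1b9, the closest at 84.4%, stood at 1.06, but Klk1b5 at 83.5% stood at -0.18 and Klk1 at 49.1% stood at 0.61. Offsets between annotated starts lower the identity of some genes, such as Klk1b21.

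Of the 5 family genes outside the list, Klk1b3 and Klk1b4 encode the gamma and alpha subunits of the nerve growth factor complex. Klk1b4, which lacks protease activity, had log2 intensities of 8.95, 9.89 and 8.48 in the KO arrays and 9.13 in the control. Replicate 2 was again the highest, with a KO range of 1.41. Klk1b3 ran otherwise, at 6.94, 7.47 and 8.42 in the KO arrays and 8.28 in the control, with replicate 3 the highest and a KO range of 1.49. The differences by label were -0.022 ± 0.45 for Klk1b4 and -0.68 ± 0.46 for Klk1b3 (SE). Klk1b11 had 9.62, 10.09 and 9.40 in the KO arrays and 9.36 in the control, Klk1b1 9.58, 9.58 and 9.03 in the KO arrays and 9.08 in the control, and Klk1b16 7.36, 7.34 and 6.84 in the KO arrays and 7.09 in the control. None of the 5 passed the test, and the lowest adjusted p was 0.967 (limma), for Klk1b3. In RefSeq order along the chromosome, the nearest protein-coding genes to Klk1b22 are Klk1b27 and Klk1b16, which stood at 0.43 and 0.24 for replicate 2 minus the mean of the other KO arrays, against 2.50 for Klk1b22.

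**Figure D4:**
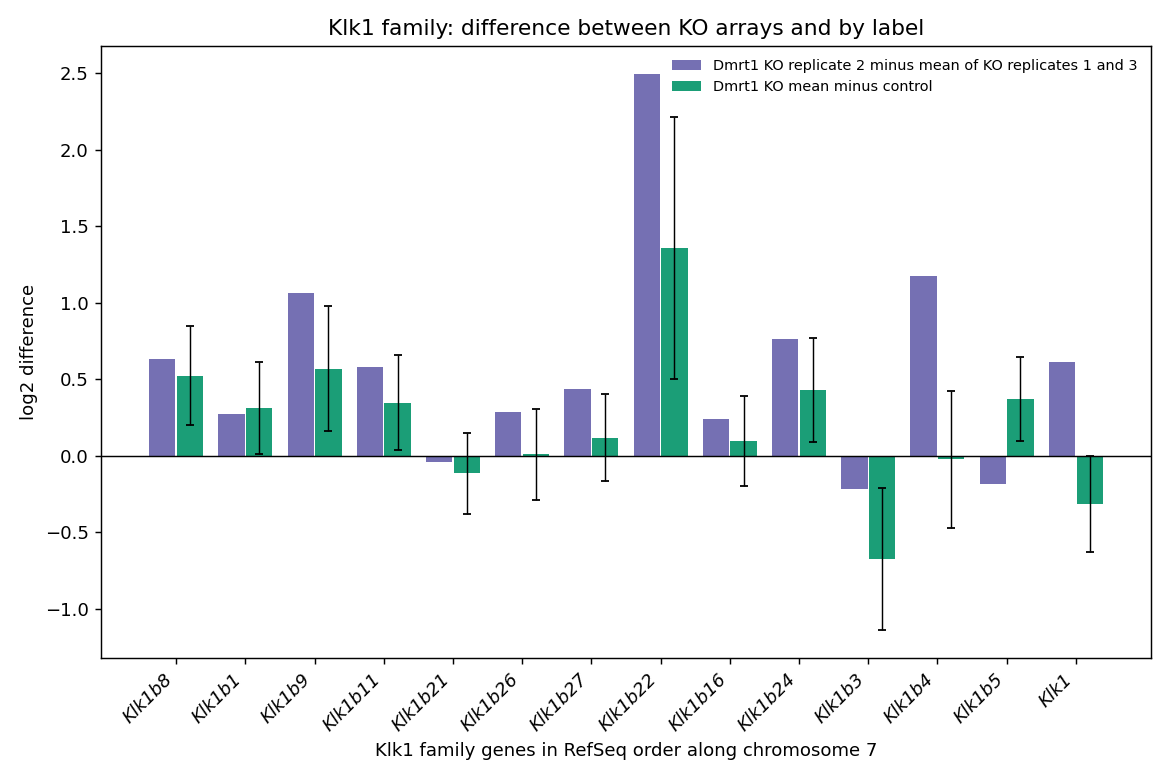
Log2 differences (vertical axis) of the 14 Klk1 family genes in their order along chromosome 7 (horizontal axis). Purple bars are Dmrt1 KO replicate 2 minus the mean of KO replicates 1 and 3 and green bars are the KO mean minus the control, with the standard error of the limma fit. Klk1b22 has the tallest purple bar at 2.50, followed by Klk1b4 at 1.18 and Klk1b9 at 1.06.

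By the distance between log2 levels over the 4 arrays, each centred on its own mean, no named gene came close to Klk1b22. The 5 nearest outside the family were Slc15a2, a peptide transporter, at 1.10, Zp2, a zona pellucida glycoprotein of oocytes, at 1.15, Pclaf, a partner of the replication clamp, at 1.16, Cbln4, a cerebellin, at 1.31, and Nlrp5, an oocyte protein, at 1.32. Klk1b9 was the nearest family gene among the members at 1.56. Slc15a2 had log2 intensities of 8.28, 9.87 and 8.82 in the KO arrays and 7.68 in the control, so it shared the order of the KO arrays and had its lowest value in the control. The median profile of the members was far less distinctive, with 600 of 17412 named transcripts outside the family within a distance of 0.25. Its 5 nearest were Olfr1085 and Olfr654, both olfactory receptors, Kitl, the Kit ligand, Lurap1l and Acvr1c, an activin receptor, at 0.094 to 0.10.

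The other kallikreins and the genes on which kallikreins act did not pass the test. Over all transcripts only 0.655% passed, so a count of 0 in lists this short says little about their genes. Of 11 measured kallikreins outside the Klk1 family, 0 rose, 0 fell and 11 did not pass. The smallest p-values were those of Klkb1, plasma kallikrein, at 0.84 ± 0.27 (SE), Klk14 at 0.60 ± 0.27 and Klk10 at 0.45 ± 0.26. Of 15 measured genes of the kinin and renin-angiotensin pathway 0 passed, with Agt, angiotensinogen, at 0.95 ± 0.29, Ren1, renin, at 0.74 ± 0.36 and Agtr2, an angiotensin receptor, at 0.45 ± 0.26. Of 11 measured substrates and growth factor partners 0 passed, with Mmp9 at -0.40 ± 0.27, Plau, urokinase, at 0.46 ± 0.37 and Egf, epidermal growth factor, at -0.39 ± 0.39. Of 17 measured inhibitors of serine proteases 0 passed. An unadjusted p under 0.05 was seen in 5 of these 17, against 1 of the 11 kallikreins, 1 of the 15 pathway genes, 0 of the 11 substrates and partners and 6.42% of all transcripts. The first 3 inhibitors were Serpina5, the protein C inhibitor, at -1.10 ± 0.26, Serpine2, protease nexin 1, at 1.02 ± 0.27 (limma, adjusted p = 0.152 and 0.229), and Serpina3n at 0.77 ± 0.25. The medians of these 4 lists were 0.13, 0.073, -0.12 and 0.11 on the log2 scale, against 0.0043 over all transcripts.

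Markers of the tissues and cells that make kallikreins were read in the same arrays, where 0.655% of all transcripts passed. The 20 Leydig cell genes summed to 205850, 243371 and 269840 intensity units in the KO arrays and 210340 in the control, and 0 passed (Hsd3b1 at 0.76, Hsd11b1 at 0.61 and Hsd3b6 at 0.57). Among the KO arrays, replicate 2 was the highest in 6 of the 20 Leydig genes, and their median of replicate 2 minus the mean of the other KO arrays was 0.074. In 3 of the 20, against 7.39% of all transcripts, replicate 2 was the highest and replicate 1 the lowest of all 4 arrays. This was more frequent in the kinin and renin-angiotensin list (6 of 15), the salivary gland list (3 of 10) and the epididymis and duct list (4 of 14). In all other lists it was rarer than in the Leydig list. A pair of the 3 Leydig genes was chosen after the values were seen. The pair does not stand for the list, whose sum was highest in replicate 3. It was Insl3, a Leydig hormone, with log2 levels of 12.23, 13.36 and 12.66 in the KO arrays and 12.86 in the control, and Fdx1, which passes electrons to steroidogenic enzymes, with 10.92, 12.35 and 11.84 in the KO arrays and 11.66 in the control. The 10 salivary gland genes summed to 7071, 8295 and 7868 in the KO arrays and 4581 in the control, and 0 passed. Aqp5, a water channel, at 1.46, and Amy1, an amylase, at 1.19, had the smallest p-values there, then Dcpp1 at 0.24, and the saliva protein genes Bpifa2 and Smgc had log2 levels of 5.97 or less in every array. The 14 epididymis and duct genes summed to 6165, 10762 and 8038 in the KO arrays and 6609 in the control, the one marker list with the order of all 4 arrays seen in Klk1b22, and 0 passed (Spint4 at 0.48, Svs5 at -0.36 and Adam7 at 0.38). Most of that sum was Cst8, a cystatin, at 3353, 7772 and 5696 in the KO arrays and 3995 in the control, whereas Crisp1, a sperm-coating protein, was highest in replicate 1. Without Cst8, a setting added after seeing the data, the other 13 genes summed to 2813, 2989 and 2342 in the KO arrays and 2614 in the control, and the order of Klk1b22 was lost. That sum still held Crisp1. By gene, replicate 2 was the highest KO array in 9 of the 14, against 34.8% of all transcripts. Their median of replicate 2 minus the mean of the other KO arrays was 0.31, against 0.012 over all transcripts. No marker was listed at 0. The part of Leydig or epididymal RNA in the kallikrein values was not tested, and in whole testis a change in the number of cells and in RNA per cell cannot be told apart.

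**Figure D5:**
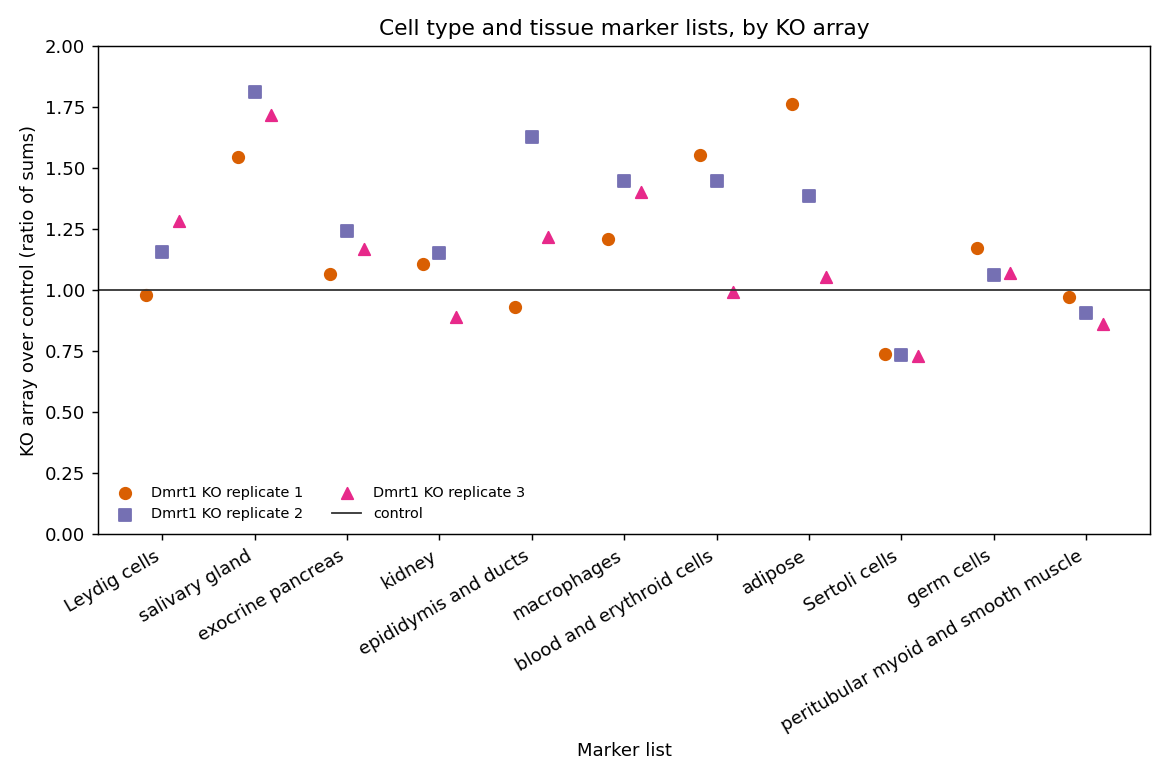
Summed intensity of 11 marker lists in each Dmrt1 KO array divided by that in the control array (vertical axis, ratio); the horizontal line at 1 is the control. Epididymis and duct genes stood at 0.933, 1.63 and 1.22 in KO replicates 1, 2 and 3, and Sertoli genes between 0.731 and 0.737.

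In the salivary gland, macrophage and exocrine pancreas lists the KO arrays had the order of Klk1b22, with replicate 2 the highest and replicate 1 the lowest, but the control lay below all 3 KO arrays. Beside these and the epididymis and duct list, none of the marker lists had that order of KO arrays. Exocrine pancreas genes (12 measured) ran from 5736 to 6667 in the KO arrays and stood at 5376 in the control, and kidney genes (10) from 3234 to 4193 in the KO arrays and at 3637 in the control. Macrophage genes (15) ran from 25276 to 30292 in the KO arrays and stood at 20913 in the control, and adipose genes (11) from 6773 to 11330 in the KO arrays and at 6431 in the control. Blood and erythroid genes (6) ran from 37344 to 58476 in the KO arrays and stood at 37687 in the control, germ cell genes (14) from 155978 to 172272 in the KO arrays and at 147063 in the control, and peritubular myoid genes (9) from 36703 to 41406 in the KO arrays and at 42630 in the control. In these 7 lists 0 genes passed. Of 19 measured Sertoli genes, against 0.655% of all transcripts, 4 passed. Of these 3 fell (Cst9 at -2.89, Cldn11 at -1.72 and Gata1 at -1.55 on the log2 scale) and 1 rose (Krt18 at 1.73), with list sums of 192940 to 194459 in the KO arrays and 263853 in the control. With a pseudocount of 64, Cst9 and Cldn11 no longer passed (limma, adjusted p = 0.0922 and 0.0609).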

How the data were processed

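The deposited table holds linear intensities, 1 for each RefSeq accession in each array. The authors made these intensities with RMA, per the submitters' processing notes, which corrects background, normalises arrays by quantiles and summarises probes. Its version, settings and probes are not given in the sources used here. Intensities ran from 23.9 to 65156, and array medians from 1005 to 1011. The number of arrays limits the precision.

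Intensities were set to a floor of 1, which none reached, and log2 was taken. Accessions without version were matched to RefSeq genes of GRCm38.p6, naming 17780 of 25631 transcripts. For genes of the lists, the transcript with the highest mean stood for the gene. Each transcript was fitted with limma 3.58.1 in R 4.3.3 (lmFit, eBayes), KO minus control, two-sided, with Benjamini-Hochberg adjustment over all transcripts and a threshold of 0.05. The 2 residual degrees of freedom come from the KO arrays, so the lone control is assumed to vary like them. The fit drew each variance towards a value pooled over all transcripts (prior SD 0.242, 7.97 prior degrees of freedom). Each SE and p thus rests largely on the pooled spread and not on the gene's own KO arrays. For Klk1b22 the SE was 0.86, although the SD of its KO arrays was 1.58. The procedure was tested on simulated data. There the control was drawn with the same spread as the KO arrays, so the simulation could not test that assumption.

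Start-site regions were aligned globally with Biopython 1.88 (match 1, mismatch -1, gap opening -3, gap extension -1). The protein comparison planned for close copies was replaced by this one, since proteins were not used here. Genes named by rule were all 9 members, up to 3 genes per list with the smallest p, any that passed, and the 5 nearest profiles, with RIKEN and predicted names skipped. Outside this rule, Dmrt1, the other Klk1 family genes and the tissue markers Amh and Ddx4 were named. Insl3, Fdx1, Cst8, Crisp1, Bpifa2 and Smgc of the marker lists were also named outside it. The members and lists were chosen with earlier results of these data known. Replicate numbers are names in accession order.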

Additional observations from a re-analysis of the deposited data

How the results depend on the processing

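Under all 10 other settings fixed at the outset, 0 kallikrein genes passed. Over 88 recomputed member differences the lowest adjusted p was 0.172 (limma), and 4 changed sign. Klk1b26 went to -0.0079 after quantile normalisation again and ranged from -0.088 to 0.19 when each KO replicate was left out, and Klk1b27 ranged from -0.028 to 0.22. The filter on the dimmest 25% of transcripts removed Klk1 and Klk1b26 and left 7 members. The range of Klk1b22 over the KO arrays ran from 1.31 (without replicate 2) to 3.15 when 1 of them was left out, where fewer arrays make a narrower range, and from 3.02 to 3.18 under quantile normalisation, median centring and a pseudocount of 64. Members highest in KO replicate 2 among the KO arrays were 7, and 6 after quantile normalisation again. These settings for the range and for counts over members were added after seeing the data. The count of members with the control outside the KO range, 4 with all arrays, was 5 to 7 with a KO array left out (7 without replicate 1), where the range is narrower by construction. Over all transcripts, limma called 168, and 86 with the pseudocount, which shrinks differences of dim transcripts. No paired analysis was possible because 1 control array allows no pairs and the titles number no replicates. No alternative varies the control array, and without background values it is not known whether the dimmest members were above background.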
